A study of Mus musculus with 8 samples.

Results

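The 9 genes described here are the 4 myogenic regulatory factors Myod1, Myf5, Myf6 and Myog, the paired-box genes Pax3 and Pax7, the homeobox gene Six4, its cofactor Eya1, and Msc. The values are genomic regions at which H3K27ac, a histone acetylation found at active promoters and enhancers, was called as differing between Nrip1 KO and control (Ctrl) primary mouse myotubes. A region was taken for a gene when its centre lay inside the gene, when the gene held the nearest protein-coding start, or when its centre lay within 200 kb of one of the gene's transcript starts. By this rule 22 of the 11180 listed regions belonged to the 9 genes, 7 listed as increased and 15 as decreased in KO myotubes.

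Libraries were made by CUT&RUN, in which an antibody directs a nuclease to marked chromatin and the released DNA is sequenced. Per the labels, 8 libraries fell into 4 groups of 2, with H3K27Ac and IgG libraries for Nrip1 KO and for Ctrl myotubes, all differentiated for 4 days. The satellite cells, the stem cells of muscle, came from gastrocnemius, and nuclei were pooled before being divided between antibodies. Nrip1 encodes RIP140, a coregulator of nuclear receptors. The mice of the study carried Nrip1 fl/fl alleles and a Cre recombinase driven by the muscle creatine kinase (MCK) or the myogenin promoter, and their controls were littermates without Cre. The paper describes the profiled myotubes as those of its striated muscle line, which carried the MCK driver, while the labels give only Nrip1 KO. Both promoters are active in differentiating muscle cells rather than in resting satellite cells. The myogenin promoter, that of Myog in this set, drove Cre in the other line. Age was not given for these libraries. The deposited values are positions only, so fold changes, replicate spread, depth and IgG background are unknown, and each direction below is that of the list in which a region stands. Levels of the targeted gene could not be checked. Inside Nrip1, on chromosome 16, 2 decreased and 0 increased regions were centred, where 35.0% of all regions were increased. The share for chromosome 16 is not given here, so these counts are no check of the knockout. Acetylation at muscle marker genes that did not differ is likewise not in these lists, so the identity of the cultures was not checked by level.

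MyoD, Myf5, MRF4 (the product of Myf6) and myogenin are basic helix-loop-helix (bHLH) proteins that pair with E proteins, bind the DNA sequence called an E-box and switch on muscle genes. Pax3 and Pax7 act above them in muscle precursors, and Pax7 marks satellite cells and is turned down as these differentiate. Six4 binds MEF3 sites with Eya proteins as coactivators and acts on Myf5, Myod1, Myog and Pax3 expression, while musculin, the product of Msc, is a bHLH repressor that opposes MyoD.

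The regions differ in sequence between the genes, and the stretches below show where E-boxes stood in them. Each line gives the 200 bases of a region that held the most motif matches, on the plus strand of mm10 (read from GRCm38.p6, the assembly it corresponds to), 5′ to 3′. Capitals mark motif matches. The palindromic E-box was CAGCTG. The other E-box was searched as CAGGTG, which reads CACCTG from the other strand. The AP-1 motif was TGACTCA in its first form. Its second form was TGAGTCA and stands in none of these lines. The TEAD motif was CATTCC, which the other strand shows as GGAATG. The first lines are from the widest and the closest increased regions upstream of Myod1. In the stretch of the widest, 2 TEAD matches share a base and 2 CAGCTG boxes follow, and the stretch of the closest holds 1 match to each E-box and 1 TEAD match.
Myod1, increased, chr7:46317026-46317225: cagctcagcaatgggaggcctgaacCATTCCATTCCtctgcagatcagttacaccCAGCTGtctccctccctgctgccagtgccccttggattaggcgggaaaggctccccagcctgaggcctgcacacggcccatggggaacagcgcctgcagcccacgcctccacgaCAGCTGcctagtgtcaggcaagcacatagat
Myod1, increased, chr7:46335520-46335719: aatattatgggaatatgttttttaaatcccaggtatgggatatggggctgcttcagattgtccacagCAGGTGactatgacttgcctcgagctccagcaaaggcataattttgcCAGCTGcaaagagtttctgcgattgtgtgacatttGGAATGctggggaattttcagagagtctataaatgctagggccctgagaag
The next is from the increased region nearest to Myf5 and Myf6, whose stretch holds a single match, a CAGGTG box at its edge.
Myf5 and Myf6, increased, chr10:107454012-107454211: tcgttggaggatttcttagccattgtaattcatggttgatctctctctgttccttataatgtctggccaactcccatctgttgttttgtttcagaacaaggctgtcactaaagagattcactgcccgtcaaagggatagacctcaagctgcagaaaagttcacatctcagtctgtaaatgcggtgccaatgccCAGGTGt
From Pax7 come stretches of the widest intronic region, with 3 of its 4 CAGCTG boxes, of the intronic region nearest to the start, with a CAGGTG box in each orientation, and of the upstream region nearest to the start, where CACCTG and CAGCTG stand side by side.
Pax7, decreased, chr4:139762478-139762677: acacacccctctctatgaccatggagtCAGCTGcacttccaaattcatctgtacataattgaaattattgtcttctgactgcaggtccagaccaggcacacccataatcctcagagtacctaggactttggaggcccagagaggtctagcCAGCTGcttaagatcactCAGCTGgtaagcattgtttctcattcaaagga
Pax7, decreased, chr4:139813742-139813941: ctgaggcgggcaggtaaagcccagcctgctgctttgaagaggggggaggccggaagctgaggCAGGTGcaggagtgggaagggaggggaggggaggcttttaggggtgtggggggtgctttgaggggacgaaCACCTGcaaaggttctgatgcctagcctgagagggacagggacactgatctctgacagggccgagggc
Pax7, decreased, chr4:139845759-139845958: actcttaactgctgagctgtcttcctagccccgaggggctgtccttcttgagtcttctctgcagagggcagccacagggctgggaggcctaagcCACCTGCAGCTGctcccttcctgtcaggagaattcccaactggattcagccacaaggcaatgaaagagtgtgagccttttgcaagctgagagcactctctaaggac
The last are the intronic region of Pax3 and both regions of Eya1. In the increased region of Eya1, TGACTCA and CACCTG overlap by 2 bases, so that 1 run of capitals marks both.
Pax3, decreased, chr1:78129114-78129313: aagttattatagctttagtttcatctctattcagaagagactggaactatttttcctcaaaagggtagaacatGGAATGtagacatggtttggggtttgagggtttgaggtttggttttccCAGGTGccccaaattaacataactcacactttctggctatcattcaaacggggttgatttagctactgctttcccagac
Eya1, decreased, chr1:14035848-14036047: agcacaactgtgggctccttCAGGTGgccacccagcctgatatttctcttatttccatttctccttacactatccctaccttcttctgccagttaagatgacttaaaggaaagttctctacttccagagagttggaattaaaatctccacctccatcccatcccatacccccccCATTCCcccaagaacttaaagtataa
Eya1, increased, chr1:14188479-14188678: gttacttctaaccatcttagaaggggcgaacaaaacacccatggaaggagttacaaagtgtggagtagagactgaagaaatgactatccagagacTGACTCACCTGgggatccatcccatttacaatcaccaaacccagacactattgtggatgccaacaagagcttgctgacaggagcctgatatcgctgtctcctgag

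Myod1, Myf5, Myf6 and Eya1 each had at least 1 increased region, and Myf5, Myf6, Pax3, Pax7, Six4 and Eya1 each had at least 1 decreased region. Among all 21938 protein-coding genes, 37.7% had an increased and 57.7% a decreased region by the same rule, so 4 and 6 of 9 are shares of the same order. Myf5, Myf6 and Eya1 had regions of both directions, and Myog and Msc had none. A gene of the set had a median of 2 regions, as did all protein-coding genes, and 25.1% of protein-coding genes had none. Of the 22 regions, 31.8% were increased (95% exact binomial interval 13.9 to 54.9%, counting error only), beside 35.0% of all regions. Without the 11 regions of Pax7, 7 of 11 were increased (63.6%, interval 30.8 to 89.1%), so Pax7 sets the balance of the whole set. Regions of 1 locus are neighbours and not independent, so these intervals are descriptions.

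None of the 22 regions was centred within 10 kb of a start of any of the 9 genes. By the base at their centre, 12 lay in introns, 8 were intergenic and 2 were promoter-proximal, within 1 kb of a start of another gene. A gene of the set held the nearest protein-coding start for 13 regions, and another gene held it for 9. The promoters of the 9 genes were thus not in either list, which does not say whether they were acetylated.

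**Figure D1:**
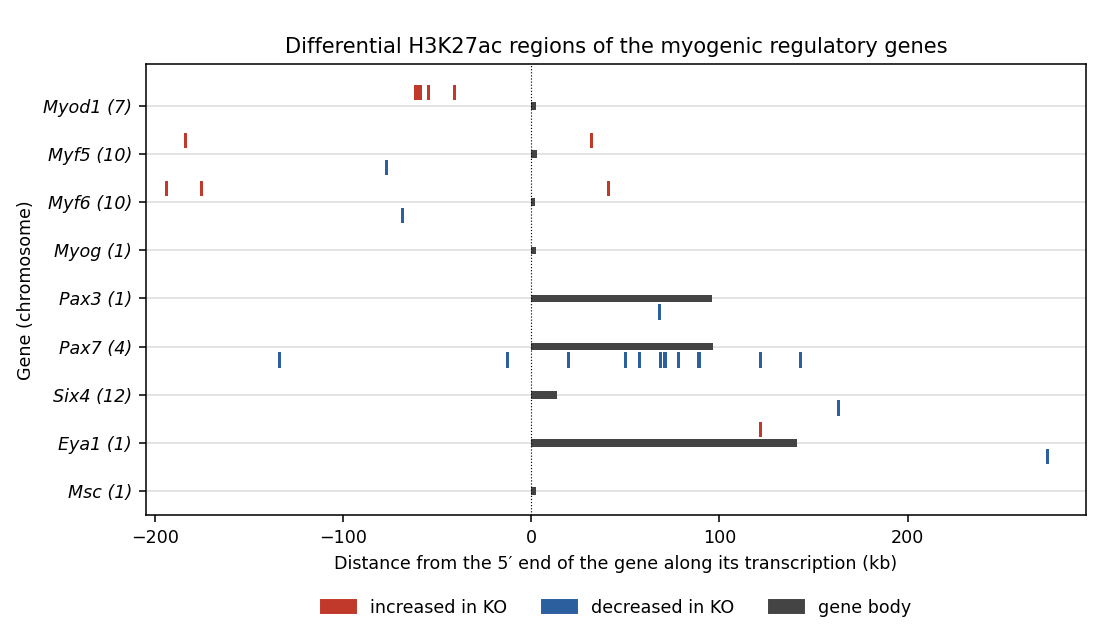
Position of each differential H3K27ac region (coloured ticks, drawn at least 1.6 kb wide) from the 5′ end of each gene along its transcription, in kb, with chromosomes in parentheses. Increased regions lie above the line of Myod1, Myf5, Myf6 and Eya1, the 11 regions of Pax7 all lie below, and the lines of Myog and Msc hold none.

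Myod1, which commits cells to the muscle lineage, had 3 increased and 0 decreased regions. The widest, chr7:46313996-46318580, measured 4585 bp, was made by joining 4 peaks and was centred 60186 bp upstream of the start. The second, chr7:46321409-46322414, was 1006 bp wide and was centred 54563 bp upstream. The closest, chr7:46335219-46335719, was 501 bp wide and was centred 41005 bp upstream. All were intergenic, and all had the start of Otog, an inner ear gene, as the nearest protein-coding start, at 20913, 26536 and 40094 bp. Only the distance limit therefore ties them to Myod1. The known core enhancer and distal regulatory region of Myod1 lie upstream of the gene, nearer to it than any of these regions, and neither list held a region there. No decreased region lay within 1 Mb of Myod1, whose closest decreased region was centred 1690415 bp away, against 13 increased regions within 1 Mb.

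Myod1 is on chromosome 7, where 97.7% of the 996 regions were increased. Within 5 Mb of Myod1 50 regions were increased and 3 decreased. A count of 3 of 3 increased is therefore near the background of this chromosome, and a property of the whole chromosome and one of Myod1 cannot be told apart here.

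Myf5 and Myf6 stand side by side on chromosome 10, with starts 8603 bp apart, and encode Myf5, the first of the factors to appear in the embryo, and MRF4, which is abundant in mature fibres. Myf5 had 2 increased regions and 1 decreased region, Myf6 had 3 and 1, and 3 of these regions were common to both genes. The increased region chr10:107453711-107454211, 501 bp wide, was intergenic, 32173 bp downstream of the Myf5 start and 40776 bp downstream of the Myf6 start, and had Myf5 as the nearest protein-coding gene. The decreased region chr10:107562430-107563518, 1089 bp wide, lay 76840 bp upstream of Myf5 and 68237 bp upstream of Myf6, the nearest coding start, in an intron of Ptprq. Ptprq, a phosphatase gene of the inner ear named here after its place had been seen, is the upstream neighbour, and regulatory elements of Myf5 and Myf6 are known to be spread through this stretch. The increased region chr10:107669247-107670510, 1264 bp wide, lay farther out in Ptprq, 183744 bp upstream of Myf5 and 175141 bp upstream of Myf6. A second increased region in Ptprq, chr10:107688142-107688928, 787 bp wide, lay 193798 bp upstream of Myf6 and so fell within 200 kb of Myf6 alone. The decreased region was thus flanked by increased regions on either side.

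On chromosome 10, 69.1% of 656 regions were increased, and within 1 Mb of Myf5 the share was 86.7% (13 increased and 2 decreased). Within 5 Mb it was 79.6%, with 39 increased and 10 decreased regions. The 3 increased and 1 decreased regions of the pair of genes are of the same order.

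Myog, which drives the final differentiation of myoblasts into myotubes, had 0 regions of either direction. Its closest decreased region, chr1:134064885-134065785, was centred 224654 bp away and its closest increased region 642573 bp away. Within 1 Mb of Myog 1 region was increased and 7 were decreased, and within 5 Mb 16 and 40. Within 200 kb of Myog the lists therefore give no differential region at the 2-fold threshold of the authors, which leaves any smaller difference unseen.

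Pax3, which directs the migration of muscle precursors to the limb, had 1 decreased region and 0 increased. The region, chr1:78128733-78129684, was 952 bp wide and was centred in intron 5 of a transcript with 9 exons, 67630 bp from the nearest Pax3 start, and shared no base with an exon. RefSeq lists 4 functional elements of Pax3 within 200 kb of its starts, among them the hypaxial enhancer upstream of the gene and an enhancer in intron 4. None of them shared a base with the decreased region, and the intron 4 enhancer, the closest, lay 37751 bp from it. On chromosome 1, which also holds Myog, Eya1 and Msc, 31.5% of 772 regions were increased.

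Pax7 had 11 decreased and 0 increased regions, the most of any gene in the set. Of all protein-coding genes, 467 (2.13%) had 11 or more regions of either direction. Inside the gene body, which spans 96467 bp (chr4:139737062-139833528, minus strand), 7 decreased regions were centred. They covered 9885 bp, 10.2% of the gene. The intronic regions began with 1 in intron 4 (chr4:139813389-139814337, 949 bp, 19144 bp from the nearest Pax7 start) and 1 in intron 5 (chr4:139782447-139784082, 1636 bp). In intron 7 there were 4, at chr4:139775015-139776614 (1600 bp), chr4:139764520-139765545 (1026 bp), chr4:139761552-139763668 (2117 bp, the widest) and chr4:139754988-139755807 (820 bp). In intron 8, the last of the 9-exon transcript, there was 1, at chr4:139743551-139745287 (1737 bp). Gaps between neighbouring intronic regions ran from 851 to 29306 bp, and the introns before intron 4 held none.

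Outside the Pax7 gene body, 4 more decreased regions were found. The closest to the start, chr4:139845737-139846367 (631 bp), was centred 12524 bp upstream. A region 1640 bp wide, chr4:139966667-139968306, joined from 2 peaks and centred 133958 bp upstream, stood 134 bp from a start of Klhdc7a, a gene named here after its place had been seen, and belongs to Pax7 by distance alone. Beyond the 3′ end, regions of 763 and 1664 bp had Tas1r2, a sweet taste receptor gene also named after its place had been seen, as the nearest coding start. The 11 regions covered 14583 bp in all. Their median width of 1600 bp stands beside 863.5 bp for all decreased regions, and the median of the 15 decreased regions of the set was 1089 bp. The 7 increased regions of the set had a median of 787 bp beside 777 bp for all increased regions.

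Pax7 is on chromosome 4, where only 7.53% of 877 regions were increased. Within 1 Mb of its start 49 regions were decreased and 0 increased, within 5 Mb 143 and 2, and the closest increased region was centred 3267056 bp away. The decreased direction of the 11 regions is thus that of the surrounding chromosome. The number of regions inside the gene is a separate measure. Of all protein-coding genes, 41 (0.187%) had 7 or more decreased regions centred in the body, and of the 4009 genes between 50 and 200 kb in length 15 (0.374%) did, with a median of 0 and a maximum of 18. Of the 1327 protein-coding genes of chromosome 4, 9 had 7 or more, so this chromosome holds 9 of the 41. Whether the density at Pax7 exceeds what its chromosome gives was not tested. When decreased regions within 10 kb were joined, the 11 regions of Pax7 became 6, and with only regions at least 1 kb wide 7 stayed. Pax7 is expressed in satellite cells and myoblasts and not in formed myotubes, and in pooled nuclei fewer cells that carry the mark and less of the mark per cell cannot be told apart.

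**Figure D2:**
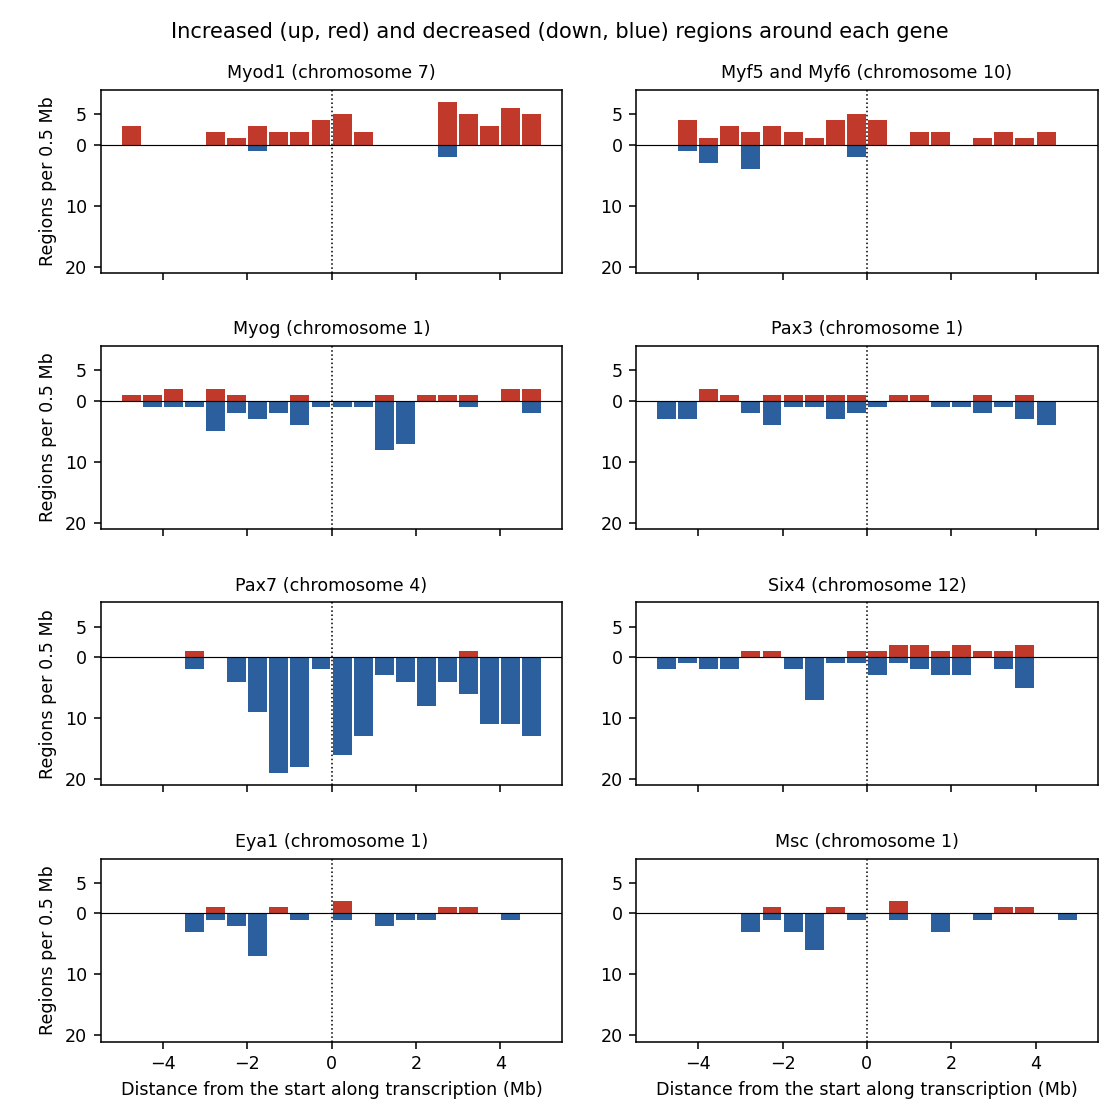
Number of increased (up, red) and decreased (down, blue) regions per 0.5 Mb within 5 Mb of each gene start, against distance along transcription in Mb. Around Myod1, 50 of 53 regions point up, around Pax7, 143 of 145 point down, and around the genes on chromosomes 1 and 12 both directions occur. Myf6 shares the panel of Myf5, and the Eya1 and Msc windows overlap.

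Six4 encodes a homeodomain factor that acts on myogenic genes. It had 1 decreased region, chr12:72949952-72950584, 633 bp wide and 163157 bp from the nearest Six4 start. It stood 627 bp from a start of the non-coding gene Gm26709, and the nearest coding start was that of 4930447C04Rik, 9494 bp away. Six6, a neighbour in the same gene cluster that acts in eye and pituitary development, has its start 10376 bp from the region. All 3 names were added after the place of the region had been seen. The region was thus nearer to Six6 than to Six4, and it had no overlap with the Six4 gene. On chromosome 12, 28.3% of 442 regions were increased, and within 1 Mb of Six4 4 were increased and 6 decreased.

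Eya1, a phosphatase and coactivator of Six4, had 1 region of each direction. The increased region, chr1:14188296-14188796, was 501 bp wide and was centred in intron 12 of an 18-exon transcript, 42946 bp from the nearest annotated Eya1 start and 121689 bp from the 5′ end of the gene. Repeats made up 93.0% of it, more than of any of the other 21 regions, whose shares ran from 1.89 to 40.1%. It was the only increased region inside a gene of the set, and without regions that were more than 50% repeats Eya1 had 0. The decreased region, chr1:14034980-14036549, was 1570 bp wide and lay downstream of the gene, 195728 bp from the nearest Eya1 start and 274471 bp from the 5′ end. Within 1 Mb of Eya1 2 regions were increased and 2 decreased.

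Msc had 0 regions. Its start lies 445757 bp from that of Eya1, and its closest regions were a decreased one centred 440577 bp away and the increased region in Eya1, 566119 bp away. Thus the bHLH repressor of the set, like Myog, stood in neither list.

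Grouped by chromosome, 6 of the 7 regions on chromosomes 7 and 10 were increased, all 11 on chromosome 4 were decreased, and of the 4 on chromosomes 1 and 12, 1 was increased and 3 decreased. Apart from the decreased region of Myf5 and Myf6 and the increased region of Eya1, each region had the direction of most regions of its chromosome. Without chromosomes 4, 7, 10 and 16, a choice made with earlier results of these data known, only the regions of Pax3, Six4 and Eya1 are left. The part of DNA copy number or of the cultures in these shares was not tested.

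The regions also differed in base composition. GC content of the 11 Pax7 regions had a median of 53.5% (range 49.4 to 57.7%), beside a median of 49.2% for the decreased regions of chromosome 4 and 47.9% for all decreased regions. The 7 increased regions of the set ranged from 37.5 to 47.2% with a median of 41.7%, beside 43.1% for all increased regions. No increased region of the set reached the lowest value at Pax7, while the 4 decreased regions of Myf5 and Myf6, Pax3, Six4 and Eya1 all lay below it, between 38.6 and 44.2%. High GC content therefore went with Pax7 and not with the decreased direction in the set.

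**Figure D3:**
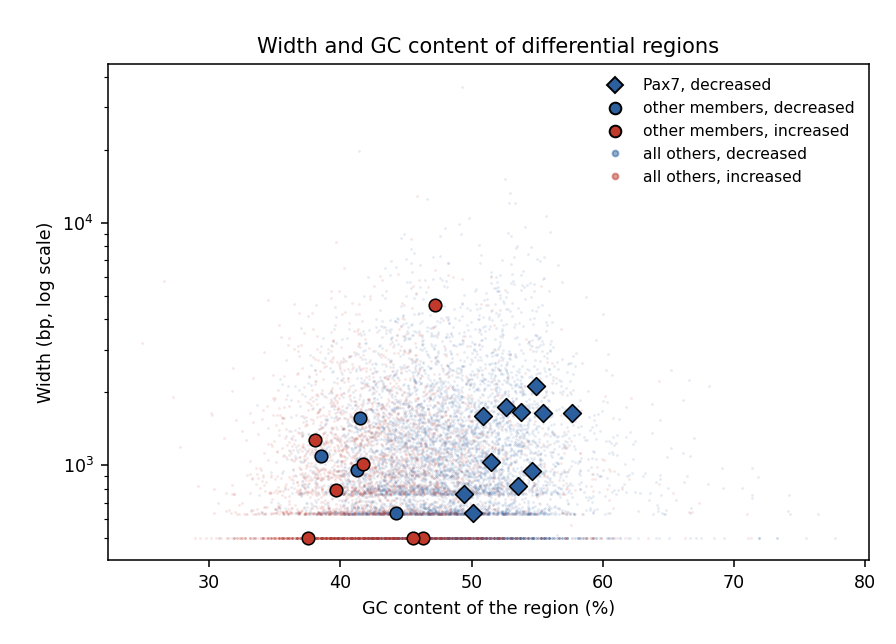
Width in bp (log scale) against GC content in % of the 22 regions of the set (large symbols) and of all other regions (small dots), red for increased and blue for decreased. The diamonds of Pax7 lie at 49.4 to 57.7% GC, the other decreased regions of the set at 38.6 to 44.2%, and the widest region of the set, 4585 bp, is that upstream of Myod1.

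E-boxes, the sites the myogenic factors bind, were searched in the central 500 bases of each region on both strands. CAGGTG was found in 14 of the 22 regions (63.6%, interval 40.7 to 82.8%), beside 29.1% of all 11179 regions placed on chromosomes, and in both directions (10 of 15 decreased and 4 of 7 increased regions, beside 31.4% and 24.9%). With the limit of 500 kb in place of 200 kb the share was 33.3% of 54 regions, so the higher share was not seen in the wider set. Pax7 made up a smaller part of that set, 18 regions. The parts of distance, locus and GC content in this change were not tested. CAGCTG was found in 7 of 22 (31.8%, interval 13.9 to 54.9%) beside 34.7% of all. At Pax7, 8 of 11 regions held CAGGTG (72.7%, interval 39.0 to 94.0%) and 6 held CAGCTG (54.5%, interval 23.4 to 83.3%). For the 2564 decreased regions within the GC range of the Pax7 regions these shares were 38.9% and 44.0%, and for the decreased regions of chromosome 4 they were 32.6% and 40.4%. For all decreased regions they were 31.4% and 37.9%, so the background was higher at the GC content of Pax7, and the part of GC content in its share was not tested. In the regions of the other genes 6 of 11 held CAGGTG and 1 of 11 held CAGCTG, the latter being the closest region of Myod1.

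At least 1 of the 2 E-boxes stood in 16 of the 22 regions (72.7%) and in 10 of 11 at Pax7 (90.9%), beside 53.3% of all regions. The 6 regions with neither in their centre were the widest region of Myod1, the decreased and both increased Ptprq regions of Myf5 and Myf6, the Six4 region and the Pax7 region of 820 bp in intron 7. Over its whole 4585 bp, however, the widest region of Myod1 held 6 CAGCTG and 3 CAGGTG boxes, part of which stand in the sequence printed above. With the whole width searched in place of the centre, 68.2% of the 22 regions held CAGCTG, beside 52.7% of all regions. The lengths searched were unlike here, since the 22 regions had a median width of 1016 bp beside 822 bp for all regions.

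The AP-1 motif was found in 3 of the 22 regions (13.6%, beside 14.1% of all), the TEAD motif in 5 (22.7%, beside 28.5%) and the MEF2 motif in 1 (4.55%, beside 5.17%). MEF3, TCAGGTTTC, the site that Six4 binds, was found in 0 of 22 (exact upper bound 15.4%), beside 0.814% of all. Outside its centre, the widest region of Myod1 held 1 MEF3 and 1 MEF2 match, and whole-width shares of these motifs over all regions were not computed. A match is a string of letters and not a bound site, and the absence of one in this window says nothing of the factor.

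**Figure D4:**
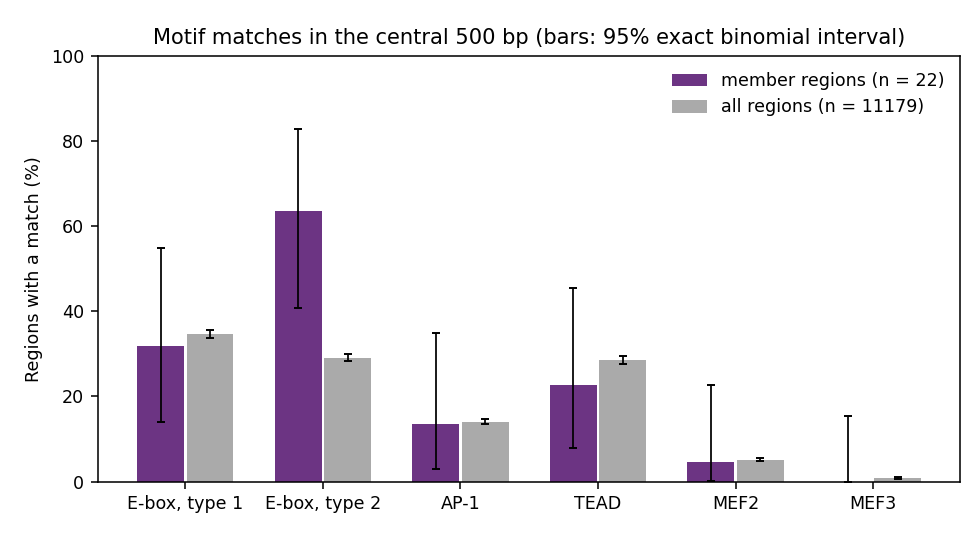
Share of regions (%) with a match in the central 500 bp for the 22 regions of the set and for all 11179 regions, with 95% exact binomial intervals. E-box type 1 is CAGCTG and type 2 is CAGGTG, and only for type 2 does the bar of the set, 63.6%, stand clear of that of all regions, 29.1%.

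The genes that act around the set were described by the same rule, from lists written with earlier results of these data known. Under this rule a region counted for a gene need not lie inside it. Of 28 upstream factors, among them Eya2, Eya4, Gli1, Zic1 and Lbx1, 12 had an increased and 17 a decreased region, 42.9% and 60.7% beside 37.7% and 57.7% of all protein-coding genes. Eya4, a relative of Eya1, had 8 increased and 0 decreased regions, 4 of them inside the gene, and it lies on chromosome 10. Lbx1, which acts in limb muscle precursors, had 2 increased. Eya2 had 7 decreased and 0 increased, and Tbx1, which specifies pharyngeal muscle, had 19 decreased and 1 increased, on chromosome 16. Of these decreased regions, 1 of Eya2 and 0 of Tbx1 were centred inside the gene. The decreased region of Six4 counts for Six6 as well. Among the Eya genes, Eya2 stood in the decreased list alone and Eya4 in the increased list alone. Eya1 and Eya3 stood in both, Eya3 with 1 increased and 3 decreased regions on chromosome 4.

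Of 24 bHLH partners and antagonists, 11 had an increased and 17 a decreased region (45.8% and 70.8%). Id1 and Id3, which bind E proteins and keep them from MyoD, each had 8 decreased regions and 0 increased, none of them inside the gene, and Id3 lies on chromosome 4. Id4 had 2 increased regions and 0 decreased. Tcf4, which encodes an E protein, had 8 increased and 6 decreased. Hey2, a Notch-responsive repressor, had 3 increased on chromosome 10. Twist2 of this list is also in the fibroblast list below.

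Of 26 targets of the myogenic factors and fusion genes, 16 had an increased and 19 a decreased region (61.5% and 73.1%), and each had at least 1. Mymk (myomaker) had 7 decreased regions and 1 increased, and Mymx (myomixer) had 6 decreased and 0 increased, none of them centred inside the gene. These encode the membrane proteins that fuse myoblasts. Jsrp1, a protein of the sarcoplasmic reticulum, had 5 decreased, also outside the gene. Mef2a had 12 increased and 1 decreased, with 3 of the increased regions inside the gene. Tnnt3, fast troponin T, had 6 increased and 0 decreased, with 0 inside the gene. Both genes lie on chromosome 7. Mef2c, on chromosome 13, had 5 increased and 0 decreased. With a limit of 100 kb, 12 of these 26 genes had a decreased region and 12 an increased one, beside 43.9% and 25.6% of all protein-coding genes at that limit.

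Of 23 satellite cell genes and niche signals, 20 had a decreased region (87.0% beside 57.7%) and 8 an increased one (34.8% beside 37.7%). Cxcr4, a chemokine receptor, Rbpj, the DNA-binding partner of Notch, and Sox8 each had 10 decreased regions, none on chromosome 4. Of these decreased regions, 3 of Rbpj and 0 of Cxcr4 and Sox8 were centred inside the gene. Cxcr4 and Rbpj also had 1 increased region each, and Sox8 had 0. Megf10, a receptor of satellite cells, had 5 decreased and 2 increased regions, all centred inside the gene. Jag1, a Notch ligand, and Notch2 had 2 increased regions and 1 decreased region each. Outside chromosomes 4, 7, 10 and 16, 18 of 20 genes of this list had a decreased region (90.0%), beside 61.1% of all protein-coding genes there. The share outside these chromosomes was 84.6% for the fibroblast markers described below, 78.9% for the targets and fusion genes and 75.0% for the bHLH list. With a limit of 100 kb the count stayed at 20 beside 43.9% of all protein-coding genes, while genes with an increased region numbered 3, beside 25.6% of all. Pax7 is not in this list, so its 11 decreased regions do not enter the count.

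Markers of other cell types that such cultures can hold stood in both lists. Of 15 fibroblast and fibro-adipogenic progenitor markers, 8 had an increased and 11 a decreased region (53.3% and 73.3%, beside 37.7% and 57.7% of all protein-coding genes), and 5 had both. Increased regions numbered 6 at Col3a1, 2 at Col1a2 and 1 at Dcn, which lies on chromosome 10. Decreased regions numbered 8 at Ly6a, 5 at Col1a1 and 4 at Fbln1, which also had 1 increased. None of these regions was centred inside its gene. Of 6 adipocyte markers 4 had an increased and 4 a decreased region (66.7% each). Adipoq, on chromosome 16, had 9 decreased and 0 increased, Lep had 3 increased and 1 decreased, Cebpa 2 and 1, and Pparg 2 and 3. Of 6 endothelial markers 2 and 3 did, and of 5 Schwann cell markers 2 and 4 (40.0% and 80.0%). With only 6 endothelial and 5 Schwann cell markers, 1 gene more or less shifts these shares widely. No difference from all protein-coding genes is therefore read from either list. The part of other cells in the regions of the myogenic genes was not tested.

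**Figure D5:**
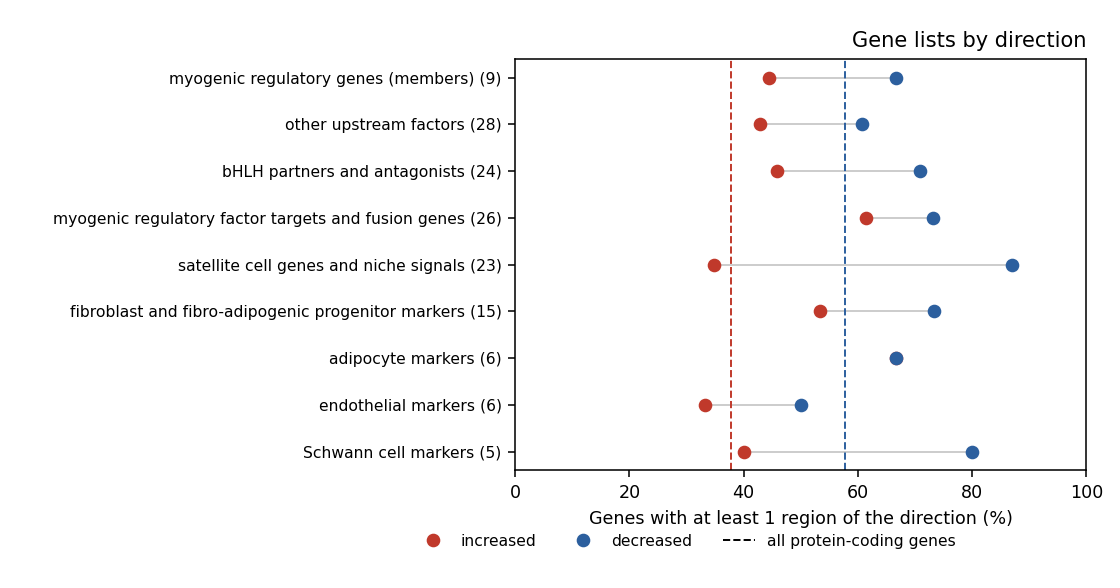
Share of genes (%) with at least 1 increased (red) or decreased (blue) region for the 9 genes of the set and for each list, with the number of genes in parentheses and dashed lines at 37.7% and 57.7% for all protein-coding genes. The satellite cell list has the highest share with a decreased region, 87.0%, and the adipocyte points coincide at 66.7%.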

How the data were processed

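Per the labels and published methods, the authors aligned reads to mm10 with BWA-MEM2 2.2.1, called broad peaks with HOMER 4.11 and listed regions that differed by 2-fold or more between Nrip1 KO and Ctrl myotubes, with 1 list per direction. How replicates and IgG libraries entered is not stated, and the labels and methods name different antibody suppliers. The deposited files hold positions and a constant score, which was not used, and depth per library is unknown.

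Half-open intervals were converted to positions counted from 1. Gene records came from GENCODE M21 and sequence and functional elements from RefSeq GRCm38.p6, and 1 of 11180 regions, on an unplaced sequence, was left out. Distances run from the region's centre to the nearest annotated transcript start. Motifs were matched exactly on both strands in the central 500 bases. Intervals are exact Clopper-Pearson intervals at 95% and cover counting error only. No test over libraries was possible. The gene set and lists were chosen with earlier results of these data known. Positions were printed for regions inside a gene of the set or within 10 kb of its start and for the widest and closest per direction. Other genes were named when nearest to 3 or more regions, or among the 3 with the most regions per list and direction, and others are named as added later. Single genes that the naming rule picked are left out where they are not reported here. The scripts were tested on simulated data. Python 3.11.15, pandas 2.3.3, scipy 1.17.1, matplotlib 3.10.9, pysam 0.24.0 and samtools 1.23.1 were used.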

Additional observations from a re-analysis of the deposited data

How the results depend on the processing

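Of 82 values over the whole set recomputed under the alternatives, 68 stayed within 1.5 times or within their interval, 14 moved and 0 reversed. With a limit of 500 kb the set had 23 increased and 31 decreased regions, and 33.3% of them held CAGGTG. With the distance rule dropped, so that only regions inside a gene or with a gene of the set as nearest coding start counted, it had 2 increased regions, at 2 genes. With only regions at least 1 kb wide it had 3 increased and 9 decreased regions with a median width of 1618 bp in place of 1016. Without chromosomes 4, 7, 10 and 16 it had 1 increased region at 1 gene and 3 decreased regions at 3 genes. Of these 4 regions 0.0% held CAGCTG. With the whole width searched, CAGCTG stood in 68.2% of the regions of the set and in 52.7% of all regions, whose median width was smaller. Fewer or more regions or bases entered under these settings, and what moved each value was not tested. The share of increased regions ran from 15.4 to 42.6% over the alternatives. Of 180 counts for single genes 35 moved, and of 32 for listed genes 7 did. The repeat filter, the CAGGTG share, the list limits and part of the settings for width and CAGCTG were added after seeing the data. No paired analysis was possible because the lists hold no value per library, and for the same reason leaving out a replicate or using a stricter threshold was not run. Depth is unknown, so the size of difference that could have been listed is unknown.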
